A study of Mus musculus with 120 samples.

Results

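The antioxidant and NRF2 target genes examined here are 40 listed genes, chosen by their symbols, and each probe set annotated with 1 of those symbols and no other was taken across 30 mouse strains. Of the 40 members, 36 had such a probe set, 74 probe sets in all among 34945 with a single symbol. The peroxiredoxin gene Prdx1 was found only on 5 probe sets that also carry another symbol, and Prdx5, Prdx6 and G6pdx were not analysed here. Testing was limited to probe sets that exceeded the median of all deposited values in 2 or more of the 60 males, which kept 66 member probe sets of 34 genes within 19429 probe sets of 11949 genes. The cystine transporter gene Slc7a11 and the carbonyl reductase gene Cbr3 had no probe set above that level, and single probe sets of Mgst1, Nfe2l2, Prdx4, Sod1 and Txnrd1 also stayed below it.

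Transcript signals had been measured on Affymetrix mouse expression arrays in livers of 10-week-old males fasted for 4 h. The panel holds MSM, a strain bred from wild mice of Japan, 28 consomic strains and the control C57BL/6J (B6). In each consomic strain 1 chromosome of MSM replaces that of B6, whole or as a centromeric (C) or telomeric (T) segment, and the strains are named here by it: Chr1, Chr2C, Chr2T, Chr3, Chr4, Chr5, Chr6C, Chr6T, Chr7, Chr7C, Chr7T, Chr8, Chr9, Chr11, Chr12C, Chr12T, Chr13C, Chr13T, Chr14, Chr15, Chr16, Chr17, Chr18, Chr19, ChrXC, ChrXT and ChrY, with mt carrying the mitochondrial DNA of MSM. No consomic strain analysed here carried chromosome 10 of MSM, where Txnrd1 and Gpx4 lie. Each strain had 2 males (n = 2) with 2 arrays each, the animal number in the labels being read as the male.

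NRF2, the product of Nfe2l2, is a transcription factor held at a low level by KEAP1, which presents it for degradation. When electrophiles or oxidants modify KEAP1, NRF2 accumulates, pairs with a small MAF protein and binds antioxidant response elements in front of genes for glutathione synthesis, thioredoxin recycling, quinone and carbonyl reduction, heme breakdown and NADPH supply. The liver, which handles most xenobiotics and exports glutathione to the blood, is a main site of this response. Superoxide dismutases, glutathione peroxidases and peroxiredoxins remove superoxide and peroxides, and only some of their genes are NRF2 targets.

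The core of the antioxidant response element, TGACNNNGC on either strand, was searched in promoter windows of 250 bases before to 50 bases after the transcription start (RefSeq, GRCm38.p6). A window was held for 33 of the 40 members, and 10 of these had a match (30.3%), against 3781 of all 27025 genes with a window. The matches below are shown for the regulator itself and for targets whose values the results turn on. Each line gives 30 bases of the gene's own strand, 5′ to 3′, with the match in capitals. A match says only that these letters stand in this window.
Nfe2l2, chr2:75704884-75704913, minus strand: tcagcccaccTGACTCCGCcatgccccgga
Gclm, chr3:122245413-122245442, plus strand: gctcccgggcGCACCGTCAactctcacgag
Srxn1, chr2:152105542-152105571, plus strand: gcagtgggcaGCTAGGTCAgagtgagacac
Txnrd1, chr10:82859104-82859133, plus strand: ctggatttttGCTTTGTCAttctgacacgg
Pgd, chr4:149166060-149166089, minus strand: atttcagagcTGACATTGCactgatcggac
Sod1, chr16:90220696-90220725, plus strand: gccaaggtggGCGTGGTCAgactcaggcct
In Srxn1 and Pgd the match begins at base 29 and base 4 of the transcript. In Nfe2l2, Gclm, Txnrd1 and Sod1 it begins 240, 134, 92 and 56 bases before the start.

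The deposited values are treated as log2, and how they were normalized is not given in the sources used here. A difference below is given on the deposited scale with its standard error (SE), is not a fold change, and is also set against the residual SD, the spread between males of a strain for that probe set. Where a gene has several probe sets they are named by their brightness in these livers, and the brightest is called the leading one. Before the results, 2 males have to be named, because they stood apart in many members: of the 66 member probe sets, male 1 of the Chr9 strain was the highest of all 60 males in 18 (27.3%, against 11.9% of all tested probe sets) and male 2 of the Chr7 strain in 8 (12.1%, against 4.71%). MSM male 1, of the strain that differs from the others throughout the genome, was the highest in 9 (13.6%, against 8.91%). The values of their strain mates are given with theirs below. MSM also differed from B6 in markers of other liver cells: of 6 Kupffer cell markers 3 were lower (Csf1r, Clec4f and Vsig4), the mean level of the list being 8.7861 and 8.7874 in the MSM males and 8.7985 and 8.7986 in the B6 males. Of 7 hepatocyte markers none (0) was called by limma, and the list means were 13.7138 and 13.7147 in the MSM males and 13.7107 and 13.7117 in the B6 males. Of the other lists, the erythroid gene Alas2 was lower (−0.101 ± 0.0162, adjusted p = 1.91e-05, the 1 marker of its list tested), as were Clec4g among 5 endothelial markers and Lrat among 4 stellate cell markers. Lyve1 among the endothelial and Epcam among 2 cholangiocyte markers were higher. None (0) of 3 lymphocyte, 2 pancreas and 1 adipocyte markers was called by limma. The part of these markers in the results was not tested, and in whole liver fewer cells of a type and less RNA per cell cannot be told apart.

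MSM was compared with B6 to ask which members differ between the parental strains. Xdh, Ephx2, Cbr1 and the leading probe set of Txnrd1 were lower in MSM, by 6.2 to 10.4 residual SDs. Probe sets of Sod2 and Sod1 were higher by 6.9 and 6.2 residual SDs. In all, limma called 16 of the 66 member probe sets (24.2%) at an adjusted p below 0.05 (Benjamini-Hochberg over all tested probe sets), against 23.4% of all tested probe sets. Of these 11 were higher (16.7% of members, against 13.4% of all probe sets) and 5 were lower (7.58%, against 9.95%). The share called was thus close to the background. In each of the 16, the MSM males and the B6 males did not overlap. The calls fell on 13 genes, Txnrd2 having 1 probe set in each direction. Over member probe sets the median moderated t was 0.65 and 44 of 66 differences were positive (66.7%), against a median of 0.52 and 59.9% positive over all tested probe sets. After quantile normalization of the deposited values, which moved the median t of all probe sets to 5.44, 31 member probe sets were called higher, against 79.5% of all probe sets, and 4 lower, against 3.02%.

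Of the regulators, neither Nfe2l2 nor Keap1 passed the test against B6 in MSM or in a strain with its chromosome. Nfe2l2 (chromosome 2) stood at 9.84575 and 9.84514 in the MSM males, 9.84522 and 9.84593 in the Chr2C males, 9.84612 and 9.84594 in the Chr2T males and 9.84675 and 9.84643 in the B6 males. The 6 males with the MSM chromosome or a part of it lay below both B6 males, as did 37 of the 56 consomic males, and the difference between MSM and B6 was −0.00114 ± 0.000588 (adjusted p = 0.161). Keap1, which senses oxidants (chromosome 9), stood on its leading probe set at 9.00342 and 9.00332 in MSM, 9.00377 and 9.00325 in Chr9 and 9.00306 and 9.00295 in B6. MSM and B6 did not overlap there, but the difference was 0.000361 ± 0.000171 (adjusted p = 0.126). Against the mean of B6 and the consomic strains with the B6 copy of its chromosome, the leading probe set was not called in MSM (adjusted p = 0.112). The dimmer probe set was called higher there (0.000259 ± 9.79e-05, adjusted p = 0.034). The other probe set of Keap1 barely followed the leading one over the 60 males (Spearman correlation 0.05).

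Glutathione synthesis begins with glutamate-cysteine ligase, made of a catalytic subunit (Gclc) and a modifier subunit (Gclm), and is completed by glutathione synthetase (Gss). Gsr encodes the reductase that recycles it. The 2 probe sets of Gclc (chromosome 9) went opposite ways in MSM. The dimmer one stood at 10.71815 and 10.70965 in MSM, 10.70746 and 10.69543 in Chr9 and 10.7283 and 10.73066 in B6. It was lower in Chr9 than in B6 (−0.028 ± 0.00637, adjusted p = 0.0223), and in MSM it missed the threshold (−0.0156 ± 0.00637, adjusted p = 0.074). The leading probe set stood at 10.83535 and 10.83416 in MSM, 10.83497 and 10.83344 in Chr9 and 10.83352 and 10.83345 in B6, and was higher in MSM (0.00127 ± 0.000472, adjusted p = 0.0497). Against the mean of B6 and the consomic strains with chromosome 9 of B6 it was the dimmer probe set that was called in MSM (−0.0144 ± 0.00458, adjusted p = 0.0131), and the leading one was not (0.000663 ± 0.00034, adjusted p = 0.117). Neither call against B6 held with fewer males. That of Chr9 was lost with B6 male 1 left out (adjusted p = 0.186) or B6 male 2 (0.206), and that of MSM without B6 male 1 (0.151), B6 male 2 (0.164) or MSM male 1 (0.452).

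Gclm (chromosome 3) differed in the Chr3 strain and was not called in MSM. Its dimmer probe set stood at 9.64355 and 9.64328 in MSM, 9.6426 and 9.64255 in Chr3 and 9.64369 and 9.64373 in B6. The Chr3 males were the lowest of all, below the 9.64294 that was lowest among the 56 males with chromosome 3 of B6. Chr3 was lower than B6 (−0.00113 ± 0.000174, adjusted p = 0.000263, and at most 0.0117 with any 1 of the males left out), while MSM differed by −0.000291 ± 0.000174 (adjusted p = 0.232). MSM minus Chr3 was 0.000838 (95% interval 0.000484 to 0.00119, adjusted p = 0.000564), so the parental strain and the strain with its chromosome 3 differed. The leading probe set was not called in Chr3 (−0.00351 ± 0.00364, adjusted p = 0.883). Gss, with differences of 0.58 to 0.61 residual SDs in MSM, and Gsr, with 1.51 to 1.87, were not called against B6. Against the mean of B6 and the consomic strains with chromosome 8 of B6, the dimmer probe set of Gsr was called higher in MSM (0.000518 ± 0.000188, adjusted p = 0.0277).

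In the thioredoxin system, the clearest difference was that of Txnrd1, the cytosolic thioredoxin reductase and a classical NRF2 target (chromosome 10). Its leading probe set stood at 8.47575 and 8.47555 in the MSM males and 8.51652 and 8.51382 in the B6 males. All 58 males other than MSM lay between 8.50541 and 8.52643, clear of MSM, which was lower than B6 by a difference of −0.0395 ± 0.00512 (adjusted p = 6.19e-07). The other tested probe set stood at 7.92356 and 7.92351 in MSM, above B6 (7.92252 and 7.92254) and above every other male (highest 7.92321), but was not called (0.00101 ± 0.000727, adjusted p = 0.331). Against the mean of B6 and the consomic strains, all with chromosome 10 of B6, it was called higher (0.00169 ± 0.000523, adjusted p = 0.0106). The untested probe set also lay above every other male in MSM, at 7.37266 to 7.37268 against at most 7.37262. With no consomic strain carrying chromosome 10 of MSM, no Txnrd1 probe set could be set against its own chromosome.

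Txn2, the mitochondrial thioredoxin (chromosome 15), was higher in MSM on 2 of 3 probe sets. The leading one stood at 10.31854 and 10.31845 in MSM, 10.31835 and 10.31841 in Chr15 and 10.31813 and 10.31815 in B6 (0.000355 ± 7.6e-05 between MSM and B6, adjusted p = 0.000802). The second stood at 10.07054 and 10.07048 in MSM, 10.07029 and 10.07032 in Chr15 and 10.07015 and 10.07014 in B6 (0.000358 ± 7.3e-05, adjusted p = 0.000469). Chr15 lay between MSM and B6 on both, and neither was called there (adjusted p = 0.384 and 0.802). B6 was low for these probe sets, since 1 and 2 of the 56 consomic males lay below both B6 males. Quantile normalization turned the sign of the leading one (−0.000777, adjusted p = 0.213). MSM exceeded Chr15 on the second by 0.000201 (95% interval 5.25e-05 to 0.00035, adjusted p = 0.0377).

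Txn1, the cytosolic thioredoxin (chromosome 4), was called on its dimmer probe set, which stood at 7.62065 and 7.62067 in MSM, 7.62063 and 7.62067 in Chr4 and 7.62053 and 7.62056 in B6 (0.000113 ± 3.96e-05, adjusted p = 0.037). That call was lost with B6 male 1 left out (adjusted p = 0.205), B6 male 2 (0.0757), MSM male 1 (0.0866) or MSM male 2 (0.187), and the leading probe set missed the threshold (adjusted p = 0.078). Against the mean of B6 and the consomic strains with chromosome 4 of B6, both Txn1 probe sets were called higher in MSM. The leading one differed by 0.00012 ± 3e-05 (adjusted p = 0.00198) and the dimmer by 9.83e-05 ± 2.85e-05 (adjusted p = 0.00668). Txnrd2, the mitochondrial reductase (chromosome 16), had 4 probe sets that disagreed. The leading one stood at 9.20413 and 9.20411 in MSM, 9.20425 and 9.20414 in Chr16 and 9.20433 and 9.20437 in B6, with the 56 males that lack the MSM chromosome at 9.20431 or above. It was lower in MSM (−0.000235 ± 6.47e-05, adjusted p = 0.00801) but higher after quantile normalization (0.00133, adjusted p = 0.00534), and the call was lost with B6 male 2 left out (adjusted p = 0.0682) or MSM male 2 (0.0617). The dimmest one was higher in MSM (0.000174 ± 5.44e-05, adjusted p = 0.0193), at 7.88835 and 7.88829 in MSM, 7.88841 and 7.88833 in Chr16 and 7.88815 and 7.88814 in B6. This call was lost with B6 male 1 left out (adjusted p = 0.0871), B6 male 2 (0.0869) or MSM male 1 (0.155). Txnip, which binds and inhibits thioredoxin, was not called (−0.0221 ± 0.0113 on its leading probe set, adjusted p = 0.157), nor were the 4 probe sets of Srxn1, which reactivates overoxidised peroxiredoxins (−0.27 to 1.34 residual SDs).

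Among the peroxide-removing enzymes, Prdx2, a cytosolic peroxiredoxin (chromosome 8), was higher in the Chr8 strain on its leading probe set. It stood at 11.09299 and 11.09297 in MSM, 11.0931 and 11.09313 in Chr8 and 11.09295 and 11.09295 in B6, and the highest of the 56 males with chromosome 8 of B6 was at 11.09307. Chr8 differed from B6 by 0.000162 ± 2.99e-05 (adjusted p = 0.00402), a call lost without B6 male 1 (0.102), B6 male 2 (0.0837) or Chr8 male 2 (0.15). MSM, not called against B6, lay below Chr8 by a difference of −0.000134 (95% interval −0.000195 to −7.25e-05, adjusted p = 0.00132). Prdx4, the peroxiredoxin of the endoplasmic reticulum (chromosome X), stood on its leading probe set at 11.31102 and 11.31097 in MSM, 11.31074 and 11.31094 in ChrXC, 11.31103 and 11.3111 in ChrXT and 11.31033 and 11.31056 in B6. It was higher in MSM (0.000547 ± 0.000151, adjusted p = 0.00797), a call lost with B6 male 1 left out (adjusted p = 0.127) or MSM male 1 (0.057). Here too B6 was low, and 3 of the 56 consomic males lay below both B6 males. The glutathione peroxidases Gpx1, Gpx3 and Gpx4 and the mitochondrial peroxiredoxin Prdx3 were not called. Without the 2 males that stood apart, Gpx3 (0.000591, adjusted p = 0.0269) and the dimmer probe set of Gpx4 (0.000279, adjusted p = 0.0247) were called higher in MSM.

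Among the superoxide dismutases, Sod2 gave opposite readings on its probe sets. Sod2, the mitochondrial manganese enzyme (chromosome 17), stood on its dimmest probe set at 7.54249 and 7.5425 in MSM, 7.54263 and 7.54238 in Chr17 and 7.5421 and 7.5421 in B6, and the other males reached 7.54223 at most. It was higher in MSM (0.000387 ± 5.54e-05, adjusted p = 3.32e-06) and in Chr17 (0.000399 ± 5.54e-05, adjusted p = 4.98e-05). The next dimmest probe set stood at 9.04667 and 9.04708 in MSM, 9.04751 and 9.04831 in Chr17 and 9.04204 and 9.0423 in B6. It was also higher in MSM (0.00471 ± 0.00107, adjusted p = 0.00142) and in Chr17 (0.00574 ± 0.00107, adjusted p = 0.00364). The Chr17 call was lost with B6 male 1 left out (adjusted p = 0.0887), B6 male 2 (0.0596) or Chr17 male 2 (0.143). The second brightest ran the other way, at 11.52169 and 11.52177 in MSM, 11.5216 and 11.52179 in Chr17 and 11.52234 and 11.52217 in B6, and just missed the threshold in MSM (−0.000527 ± 0.000205, adjusted p = 0.0608). Against the mean of B6 and the consomic strains with chromosome 17 of B6 it was called lower in MSM (−0.000559 ± 0.000148, adjusted p = 0.00319). On the leading probe set Chr17 differed from B6 by −0.000122 ± 3.81e-05 (adjusted p = 0.389).

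Against the mean of B6 and every consomic strain that has chromosome 17 of B6, the 2 brighter probe sets of Sod2 were called lower in Chr17 (leading −0.000132 ± 2.74e-05, adjusted p = 0.00764, and second −0.000593 ± 0.000148, adjusted p = 0.0498). The 2 dimmer ones were called higher (next dimmest 0.0052 ± 0.000768, adjusted p = 6.36e-05, and dimmest 0.000421 ± 3.98e-05, adjusted p = 1.13e-08). Sod1, the cytosolic copper and zinc enzyme (chromosome 16), stood on its second brightest probe set at 11.13646 and 11.13511 in MSM, 11.13267 and 11.13603 in Chr16 and 11.12135 and 11.11831 in B6. The 56 other males ran from 11.11526 to 11.12792, and the groups did not overlap. It was higher in MSM (0.016 ± 0.00255, adjusted p = 1.91e-05) and in Chr16 (0.0145 ± 0.00255, adjusted p = 0.00357), where the call was lost with B6 male 2 left out (adjusted p = 0.167) or Chr16 male 2 (0.148). The leading Sod1 probe set was not called in MSM (0.000517 ± 0.00182, adjusted p = 0.865), and nor was Sod3, the extracellular enzyme. Whether the MSM sequence under a probe differs from that of B6 was not tested, so a difference in transcript level and a difference in hybridisation cannot be told apart.

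**Figure D1:**
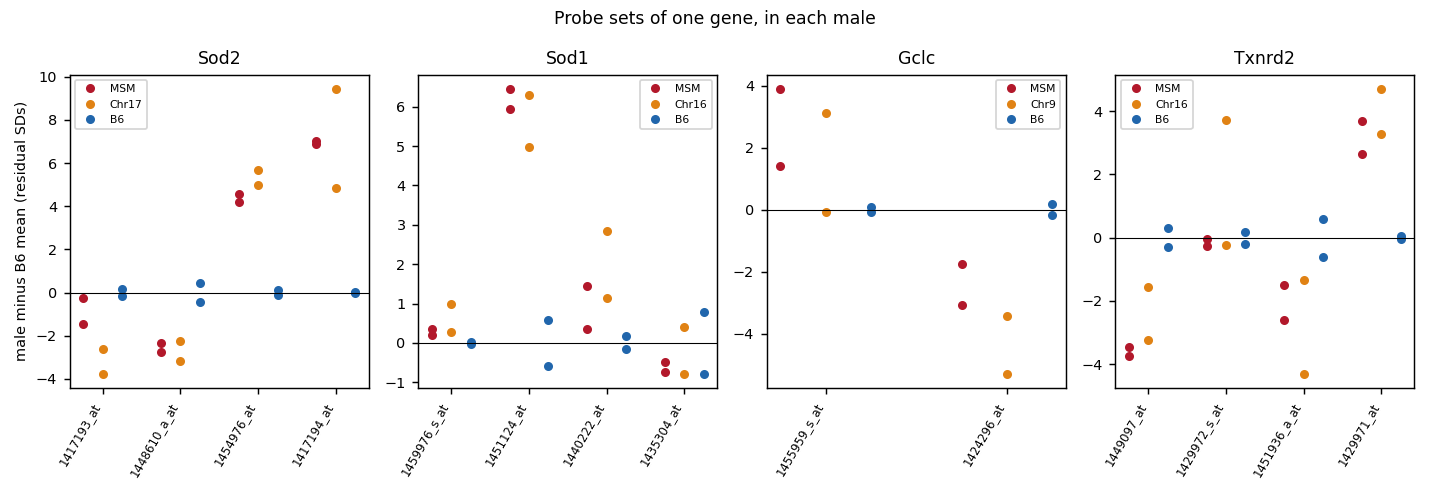
Level of each male minus the B6 mean, in residual SDs (vertical axis), for every tested probe set of Sod2, Sod1, Gclc and Txnrd2 (horizontal axis, brightest on the left), in MSM, in the strain with the gene's chromosome from MSM and in B6. In Sod2 the 2 dimmer probe sets, on the right, lie above B6 in MSM and Chr17, and in Gclc the Chr9 males lie far below B6 on the right probe set alone.

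Of the detoxification enzymes, Cbr1 and Ephx2 were lower in MSM and in the strain with their chromosome. Cbr1 (chromosome 16), a carbonyl reductase that uses NADPH, stood at 8.31206 and 8.30826 in MSM, 8.31136 and 8.30557 in Chr16 and 8.36414 and 8.36612 in B6. The 56 other males ran from 8.34883 to 8.39499, so the groups did not overlap. The difference was −0.055 ± 0.00877 in MSM (adjusted p = 1.85e-05) and −0.0567 ± 0.00877 in Chr16 (adjusted p = 0.000626), 103% of that in MSM. Ephx2 (chromosome 14), the soluble epoxide hydrolase that acts on fatty acid epoxides, stood at 11.85703 and 11.85652 in MSM, 11.85713 and 11.85799 in Chr14 and 11.86202 and 11.86126 in B6, with the lowest of the 56 others at 11.85937. The difference was −0.00487 ± 0.00067 in MSM (adjusted p = 1.81e-06) and −0.00408 ± 0.00067 in Chr14 (adjusted p = 0.000969), 83.9% of that in MSM. The Chr14 call was lost with B6 male 1 left out (adjusted p = 0.0706) or Chr14 male 1 (0.061), and quantile normalization left a difference of 0.

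Ephx1, the microsomal epoxide hydrolase (chromosome 1), stood at 12.2606 and 12.26019 in MSM, 12.25984 and 12.2602 in Chr1 and 12.26 and 12.25983 in B6, and Chr1 and B6 overlapped. Ugdh, which makes UDP-glucuronic acid (chromosome 5), stood at 10.81963 and 10.81851 in MSM, 10.81581 and 10.8149 in Chr5 and 10.81841 and 10.81751 in B6. The Chr5 males lay below both B6 males without passing the test (−0.0026 ± 0.000925, adjusted p = 0.193), and MSM exceeded Chr5 by 0.00371 (95% interval 0.00183 to 0.0056, adjusted p = 0.00283). Nqo1 and Hmox1, the quinone reductase and the heme oxygenase often used to read NRF2 activity, were not called in MSM. Hmox1 stood at 7.79288 and 7.80958 in MSM and 7.77848 and 7.78134 in B6 (0.0213 ± 0.0186, adjusted p = 0.433), and Nqo1 differed by 1.27e-05 ± 4.66e-05 (adjusted p = 0.872). The glutathione transferases Gstp1 and Mgst1 were not called against B6 either, but Gstp1 (chromosome 19) was higher in MSM than in Chr19 by 0.00188 (95% interval 0.000511 to 0.00324, adjusted p = 0.039), with 13.40079 and 13.40054 in MSM, 13.39855 and 13.39903 in Chr19 and 13.3998 and 13.40013 in B6.

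Xdh and Aox1 encode molybdenum-cofactor enzymes, xanthine oxidoreductase and an aldehyde oxidase, and differed in opposite directions. Xdh (chromosome 17) stood at 9.19965 and 9.19995 in MSM, 9.20039 and 9.19925 in Chr17 and 9.20779 and 9.20765 in B6. The 56 other males ran from 9.20516 to 9.20899, clear of the 4 males with the MSM chromosome. The difference was −0.00792 ± 0.000752 in MSM (adjusted p = 1.46e-09) and −0.0079 ± 0.000752 in Chr17 (adjusted p = 2.25e-08), 99.7% of that in MSM, and both calls held with each male of these groups left out in turn. Aox1 (chromosome 1) stood at 10.05409 and 10.04757 in MSM, 10.04621 and 10.04964 in Chr1 and 10.04034 and 10.03633 in B6, and the 4 males with the MSM chromosome lay above the 56 others (highest 10.04617). It was higher in MSM (0.0125 ± 0.0032, adjusted p = 0.00441), a call lost with B6 male 2 left out (adjusted p = 0.0687) or MSM male 1 (0.108). Chr1 did not pass against B6 (0.00959 ± 0.0032, adjusted p = 0.435) but did against the mean of B6 and the strains with chromosome 1 of B6 (0.0124 ± 0.0023, adjusted p = 0.00184).

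Of the genes that supply NADPH, Tkt, the transketolase of the pentose phosphate pathway (chromosome 14), was called in MSM on its dimmest probe set, at 7.53196 and 7.53196 in MSM, 7.53194 and 7.53194 in Chr14 and 7.5319 and 7.53192 in B6 (4.95e-05 ± 1.2e-05, adjusted p = 0.00279). The call was lost with B6 male 1 left out (adjusted p = 0.061) and with arrays fitted singly and the male as a block (0.0655). Its leading probe set stood at 10.45563 and 10.4552 in MSM, 10.45662 and 10.45667 in Chr14 and 10.45612 and 10.45561 in B6, and there MSM lay below Chr14 by a difference of −0.00123 (95% interval −0.00203 to −0.000426, adjusted p = 0.0191). Taldo1, transaldolase (chromosome 7), stood at 10.47742 and 10.47735 in MSM, 10.47767 and 10.47728 in Chr7, 10.47747 and 10.47736 in Chr7C, 10.4775 and 10.47755 in Chr7T and 10.47753 and 10.47734 in B6, and was not called. The 4 probe sets of Pgd, a dehydrogenase of the same pathway, were not called either, with differences of 0.28 to 0.44 residual SDs in MSM.

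Each consomic strain was next set against B6 to ask whether a member differs when its own chromosome comes from MSM. The C and T strains of a member's chromosome were both counted, and which segment holds the gene was not determined. Of 75 such tests, over 62 probe sets of 32 genes, 9 were called (12%), against 5.56% of all tests on a substituted chromosome. Xdh, Ephx2, Cbr1 and the dimmer probe sets of Gclc and Gclm were lower. The leading probe set of Prdx2, the second brightest of Sod1 and the 2 dimmer ones of Sod2 were higher. In 7 of the 9 the 95% interval of MSM minus the strain spanned 0, the exceptions being Gclm and Prdx2. Leaving out B6 male 1 or B6 male 2 left 5 calls each. Against the mean of B6 and the strains with the B6 copy of the chromosome 14 tests were called, where the share of all such tests was 10.3%. Of the 75 tests of MSM against the strain with the member's chromosome 6 were called, against 17.5% of all such tests.

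**Figure D2:**
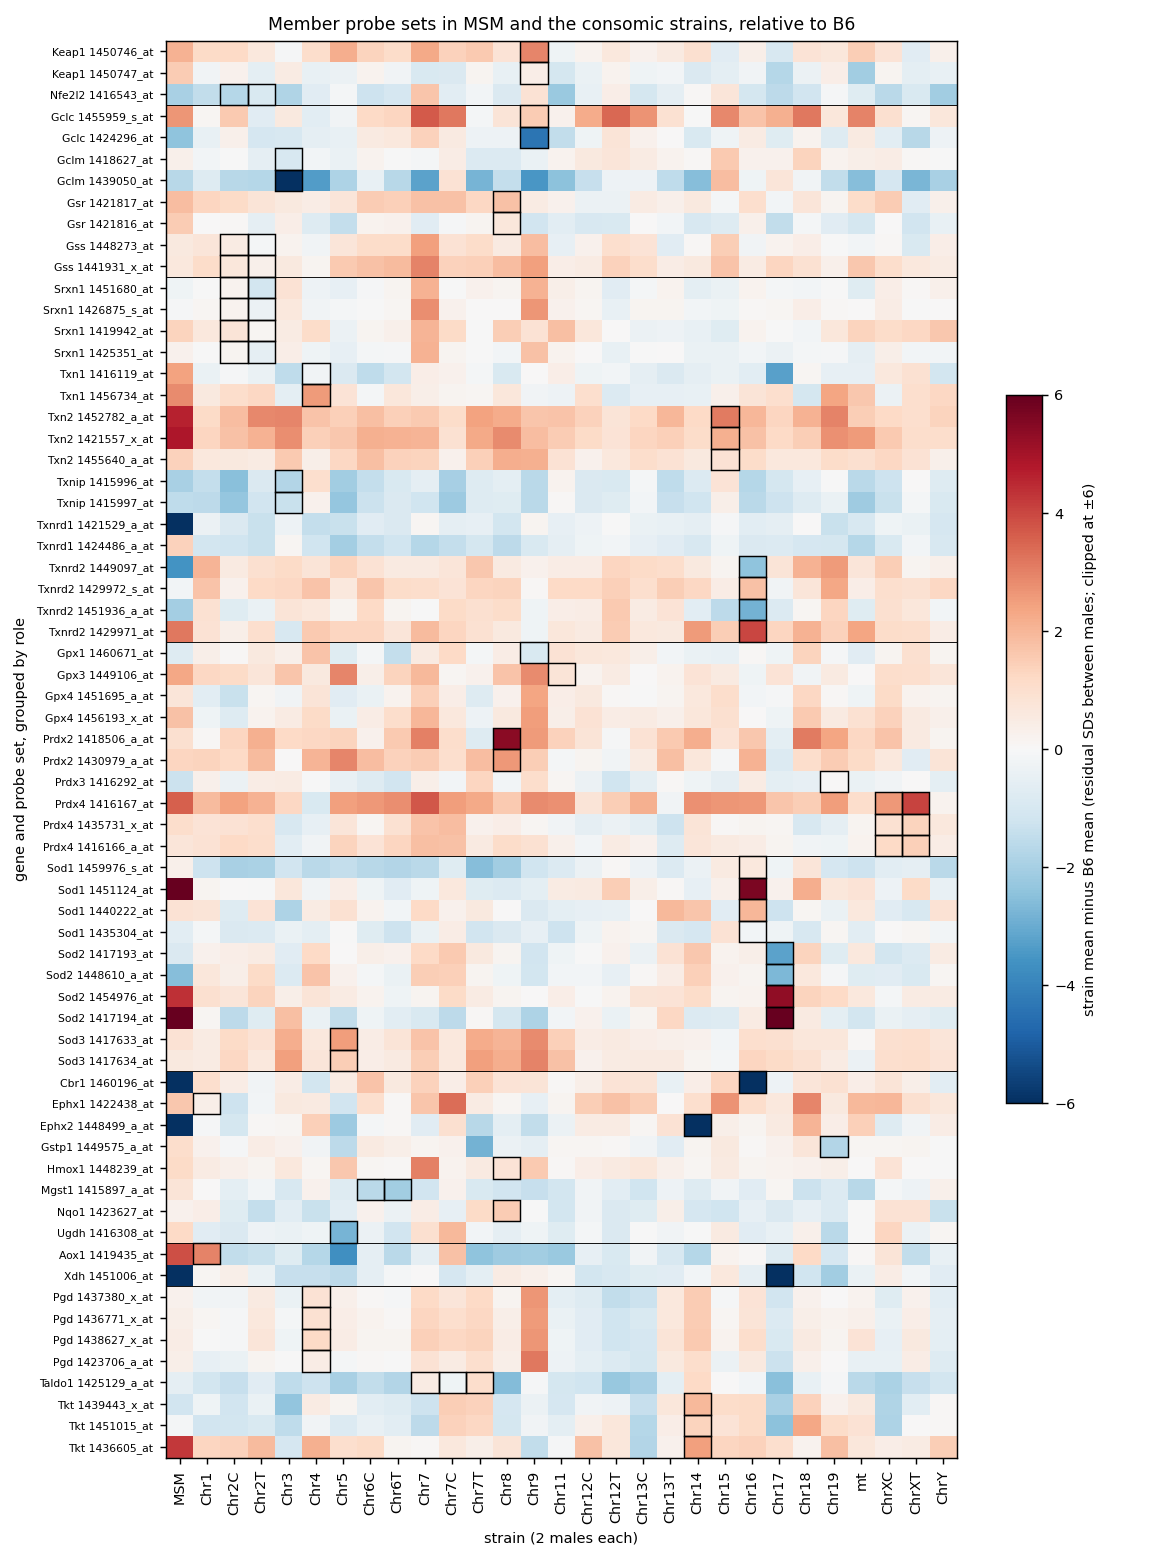
Strain mean minus B6 mean in residual SDs (colour, clipped at 6 in either direction) for the 66 tested member probe sets (down the page, grouped by role) in MSM and the 28 consomic strains (across). Outlined cells mark strains that carry the gene's chromosome, or a part of it, from MSM. Outlined cells of Xdh, Cbr1, Ephx2, Sod1, Sod2, Gclm and Prdx2 carry strong colours.

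In strains with other chromosomes of MSM no member was called. The limma fit gave 0 of 1773 tests, where 126 (7.11%) had an unadjusted p below 0.05, and 0.108% of all such tests were called. Against the mean of B6 and the strains with the B6 copy 10 were called, where the share of all such tests was 0.296%. Of these 10, 6 lay in the Chr7 and Chr9 strains, each of which holds 1 of the males that stood apart, namely Hmox1 and Srxn1 in Chr7 and Srxn1 and 3 probe sets of Pgd in Chr9. The others were Aox1 in Chr5 (−0.00978 ± 0.0023, adjusted p = 0.0191), Gclm in Chr15 (0.000609 ± 0.000125, adjusted p = 0.00652), Txn1 in Chr17 (−0.000122 ± 3e-05, adjusted p = 0.0436) and Prdx4 in Chr4 (−0.000446 ± 0.000109, adjusted p = 0.0314). Between the C and T strains of a chromosome limma called none (0) of 12 member tests, of which none (0) had an unadjusted p below 0.05, and 2.84% of all such tests. The smallest p there was that of Prdx4, with ChrXC minus ChrXT at −0.000223 ± 0.000151.

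Over all 30 strains the F-test of limma called 15 member probe sets of 13 genes (22.7%), against 16.2% of all tested probe sets. Xdh had the largest F among members (13.9, adjusted p = 8.67e-09), followed by the dimmest probe set of Sod2 (8.55), Ephx2 (7.51) and Cbr1 (6.83). When MSM and the strains with the MSM copy of a member's chromosome were taken out, limma called no member probe set (0 of 66, with 8 at an unadjusted p below 0.05), and 0.144% of all tested probe sets.

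The 2 males that stood apart were high in many of the same members. Chr7 male 2 lay above all 58 males other than these 2 in 20 member probe sets of 12 genes (30.3%), against 6.73% of all tested probe sets, and below all of them in none (0), against 5.71%. Chr9 male 1 lay above the 58 in 20 member probe sets of 11 genes (30.3%), against 13.3% of all, and below in 2 (3.03%), against 14.4%, so over all probe sets this male was extreme in both directions. Both males lay above the 58 in 14 member probe sets (21.2%), against 3.41% of all, and the 14 belong to 8 genes: Srxn1, Pgd, Gss, Hmox1, Nfe2l2, Keap1, Txnrd1 and Gpx4. These are values of 1 male each, singled out after they were seen, and carry no test.

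Srxn1 stood well above the others in both. On its second brightest probe set Chr9 male 1 stood at 8.15549 and Chr7 male 2 at 8.15352, while the 58 other males had a median of 8.11327 and a highest value of 8.1185. The 2 arrays read 8.15375 and 8.15724 in Chr9 male 1 and 8.15238 and 8.15465 in Chr7 male 2. The strain mates, at 8.11124 in Chr9 and 8.11518 in Chr7, lay within the range of the others. Hmox1 stood at 7.83854 in Chr9 male 1 and 7.88968 in Chr7 male 2, where the 58 others had a median of 7.78472 and a highest value of 7.83704. Nfe2l2 itself stood at 9.8485 and 9.84796 in these males, against at most 9.84733 in the others. The leading probe set of Txnrd1, low in MSM, was at 8.52643 and 8.52521, against at most 8.51772. For Pgd, on its dimmest probe set, the values were 8.2567 and 8.2519, against at most 8.25132.

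The 2 males also differed from each other. Both probe sets of Gclc, with Cbr1, 1 probe set of Gsr and Ugdh, lay above all 58 in Chr7 male 2 and not in Chr9 male 1, the dimmer Gclc probe set at 10.74477 against at most 10.74015. Gpx3, 1 probe set of Txn2 and both of Sod3 did so in Chr9 male 1 and not in Chr7 male 2. Of 6 Kupffer cell markers 2 lay above all 58 males in Chr9 male 1 and none (0) in Chr7 male 2, and of 4 tested stellate cell markers 3 and 1. No hepatocyte marker did (0 of 7 in either), and 2 lay below all 58 in Chr9 male 1. The part of these markers was not tested. Of 10 further regulators of NRF2, 4 lay above all 58 in Chr9 male 1 and 5 in Chr7 male 2, and 1 and 0 lay below. Among 18 further NRF2 targets 4 and 1 lay above and 1 and 1 below. For 13 further glutathione and thioredoxin genes the counts were 3 and 2 above and 1 and 1 below. Of 12 other antioxidant genes none (0) lay above in either male and 4 and 3 lay below. Of 8 genes of NADPH supply none (0) lay above in either and 0 and 1 below. Over all tested probe sets 13.3% lay above in Chr9 male 1 and 6.73% in Chr7 male 2, and 14.4% and 5.71% below.

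The same males widened the spread against which some members were tested. Without them the residual SD was lower in 45 of the 66 member probe sets and not lower in 21, the median ratio of the SD without them to the SD with them being 0.954, and in 7 it changed by more than 1.5 times. It was 0.00183 in place of 0.00776 for Srxn1 on its second probe set, 0.011 in place of 0.0188 for Hmox1 and 0.000673 in place of 0.00115 for Pgd on its dimmest one. The calls in MSM then numbered 18 (27.3%, against 26.4% of all tested probe sets), those in strains with the member's chromosome 9 and those in other strains 0.

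**Figure D3:**
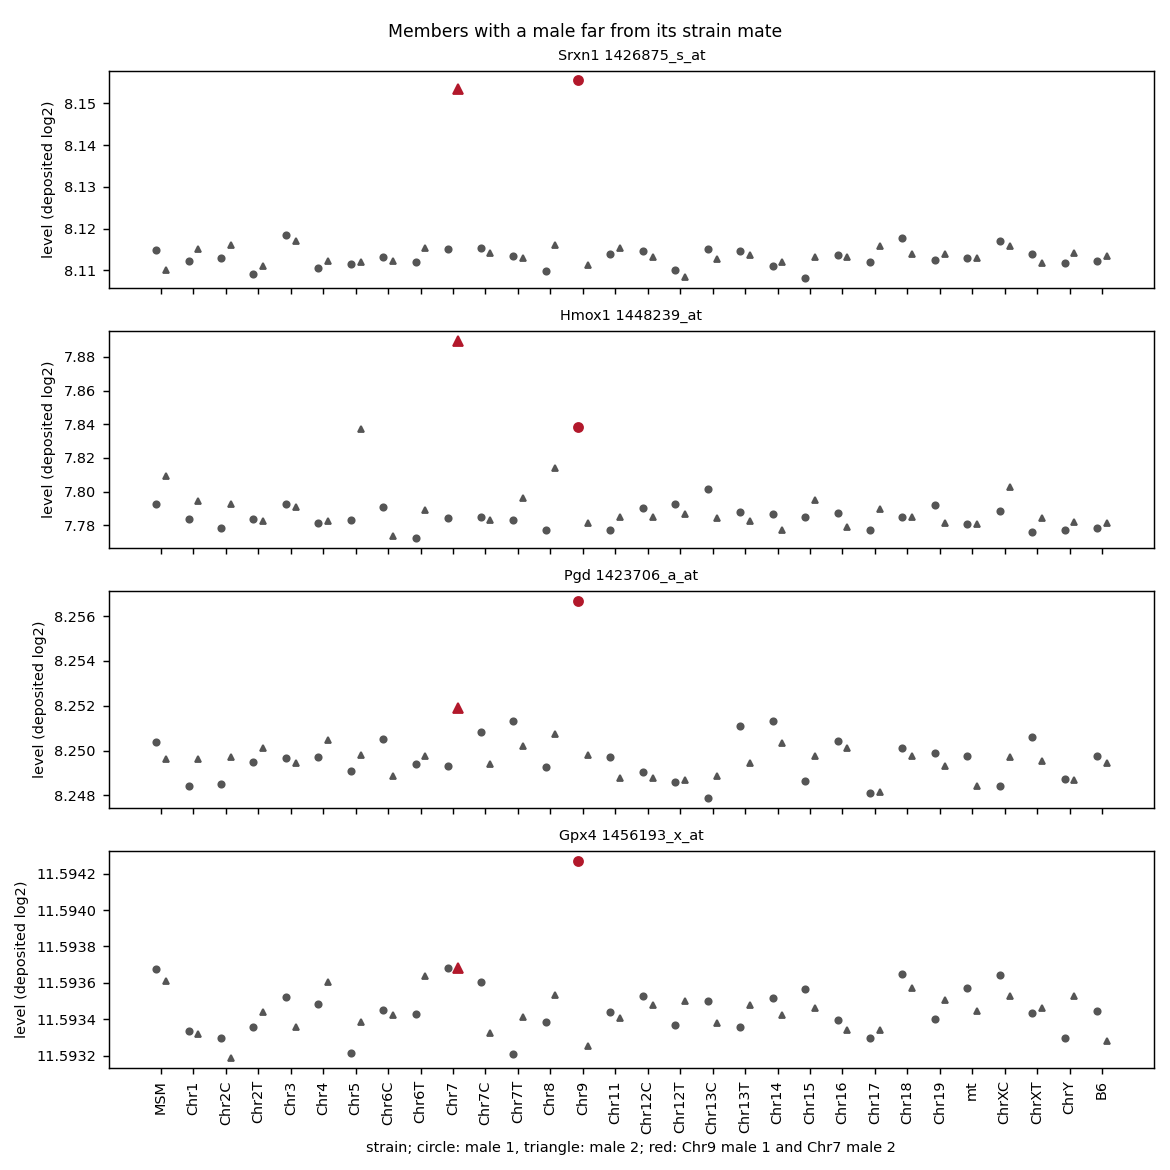
Level of Srxn1, Hmox1, Pgd and Gpx4 (deposited log2 scale, vertical axis) in each male of the 30 strains (horizontal axis, MSM on the left and B6 on the right). Circles are male 1 and triangles male 2, and the red symbols are Chr9 male 1 and Chr7 male 2, which lie far above the rest in Srxn1 while their strain mates do not.

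How well a reading repeated differed between members. Over the 60 males, 50 pairs of probe sets of the same gene had a median Spearman correlation of 0.57, from −0.30 in Sod2 to 0.98 in Pgd, and 18 pairs were above 0.7, among them those of Pgd, Txnip (0.92) and Sod3 (0.88). These correlations share the strain differences and the males that stood apart, and are descriptions. Between the 2 arrays of a male the Spearman correlation over males was 0.93 for the leading probe set of Txnip, 0.88 for Aox1 and 0.82 for Cbr1, with a median of 0.54 over member probe sets. It was −0.08 for the dimmest Tkt probe set called above. Low values were also found for the leading probe set of Prdx2 (0.28), the second brightest of Sod1 (0.31) and the dimmest of Sod2 (0.35), each called above.

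Other genes of the pathway, at the brightest probe set of each, were counted from lists that hold no member. With 1 probe set per gene, 14.5% of all tested genes were higher in MSM and 10.3% lower. Of 18 tested further NRF2 targets, 5 were higher and 7 lower in MSM. The largest statistics were those of the glutathione transferases Gstm6 (−0.0774 ± 0.00569, adjusted p = 4.39e-12), Gstm2 (−0.128 ± 0.0149) and Gsta3 (−0.00119 ± 0.000158) and the carboxylesterase Ces1g (−0.208 ± 0.018). Gstm6 and Gstm2 were also lower in Chr3, Gsta3 in Chr1 and Ces1g in Chr8, the strains with their chromosomes. Gsta3 was called lower as well in Chr9, which has chromosome 1 of B6 (−0.000625 ± 0.000158, adjusted p = 0.0454). Of 10 regulators of NRF2, 1 was higher, the small MAF protein gene Maff (0.00627 ± 0.00197, adjusted p = 0.0195), and none (0) lower. Of 13 further glutathione and thioredoxin genes 3 were higher, the microsomal transferases Mgst2 (0.0138 ± 0.00127) and Mgst3 (0.0386 ± 0.00844) and the oxoprolinase gene Oplah (0.00206 ± 0.000686), and none (0) lower. Of 12 other antioxidant genes 1 was higher and 3 were lower, among them the selenoprotein gene Selenow (−0.156 ± 0.0193) and the methionine sulfoxide reductase gene Msra (−0.00184 ± 0.000329). Of 8 further genes of NADPH supply 2 were higher, Idh2 (0.00393 ± 0.000616) and the transhydrogenase gene Nnt (0.0288 ± 0.00524), and 2 were lower. The median difference in MSM, in residual SDs, was −0.60 for the further NRF2 targets, 1.09 for the regulators, 1.82 for the glutathione and thioredoxin genes, −1.58 for the other antioxidant genes and −0.09 for NADPH supply.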

How the data were processed

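Liver RNA of 60 males of 30 strains was hybridised to 120 arrays, 2 per male. The values the authors deposited lie in the range of a log2 scale and are treated as log2 here. The normalization, the summary method and the log base itself were not given in the sources used here. The array medians ran from 7.4158 to 7.4168. Symbols came from the platform annotation, 34741 of 34945 single-symbol probe sets being matched to RefSeq for a chromosome. Arrays of a male were averaged, and a limma model (limma 3.58.1, R 4.3.3) with 1 mean per strain and 30 residual degrees of freedom was fitted to 19429 probe sets, with Benjamini-Hochberg adjustment within each contrast. The model was also run on simulated data, with independent normal errors at each probe set's residual SD. Of 100 probe sets changed in MSM by 5 residual SDs 82 were recovered, and of 100 changed by 10 all 100, with 7 false calls. Males that stand apart were not simulated. The number of males, 2 per strain, limits the precision, and p-values set a difference against the spread between males of a strain. Members and lists were chosen with earlier results of these data known. Values in each male are given for members called in MSM or in the strain with their chromosome and for the 5 others with the smallest p over strains, and genes outside the members come from the lists, at most 4 each by the size of the statistic in MSM. Hmox1, Gstp1 and the values of the 2 males that stood apart were singled out after they were seen. Alternatives were quantile normalization, other filters and priors, arrays with the male as a block (duplicateCorrelation, statmod 1.5.0), a second reference made of B6 and the strains with the B6 copy of a chromosome, 1 probe set per gene, and leaving out males. Leaving out Chr9 male 1 and Chr7 male 2 together, the second reference for other chromosomes and the fit over strains with the B6 copy were chosen after seeing the data.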

Additional observations from a re-analysis of the deposited data

Results flagged for a closer look

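By limma's test of that difference itself, MSM differed from the strain with the member's chromosome from MSM in 6 of 75 tests (adjusted p below 0.05). Over all probe sets 17.5% of such tests were called, a larger share than among members. In each of the 6 both strains carry the chromosome from the same source. Gclm, on its dimmer probe set, was higher in MSM than in Chr3 by 0.000838. Ugdh was higher in MSM than in Chr5 by 0.00371, and Gstp1 higher than in Chr19 by 0.00188. Txn2, on its second probe set, was higher in MSM than in Chr15 by 0.000201. Prdx2 was lower in MSM than in Chr8 (−0.000134), and Tkt, on its leading probe set, lower than in Chr14 (−0.00123). MSM differs from each of these strains in its other chromosomes as well.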

How the results depend on the processing

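No paired analysis was possible because the labels give the strains no shared replicate numbers that mark a litter, batch or animal. The 16 calls between MSM and B6 (11 higher, 5 lower) became 9 of 34 with 1 probe set per gene (4 higher), against 24.7% of all, and 35 of 66 after quantile normalization (31 higher), against 82.5% of all, and leaving out 1 male gave 11 to 14 (6 to 10 higher, 4 to 5 lower). The lower calls were 8 with arrays and the male as a block, and 8 against the second reference. The fit with the male as a block is called arrays as units below. It took 1 correlation between the arrays of a male (0.307) for all probe sets. The 15 calls over the 30 strains became 32 after quantile normalization, 45 with arrays as units and 0 over strains with the B6 copy, and 10 to 28 with a male left out, the 28 without Chr9 male 2. The 9 calls in strains with the member's chromosome became 4 with 1 probe set per gene, 15 with arrays as units and 14 against the second reference, and 5 to 9 with a male left out. The 0 calls on other chromosomes became 1, 4, 32 and 10 with 1 probe set per gene, quantile normalization, arrays as units and the second reference, and 0 to 20 with a male left out (18 of the 20 in Chr9 without Chr9 male 2, and 8 in Chr7 without Chr7 male 1), where the male left alone in a strain is assumed to vary like the other groups. Quantile normalization turned Txnrd2 to 0.00133 and Txn2 to −0.000777 on their leading probe sets. The cause of these shifts was not tested. Against the second reference 10.3% of all tests on a substituted chromosome and 0.296% on other chromosomes were called. Over strains with the B6 copy the share was 0.144%. In the main fit the shares were 16.2% over the 30 strains, 5.56% on a substituted chromosome and 0.108% on others. For the other settings of these comparisons no share over all tests is given, so member and array-wide shifts cannot be told apart. Of the 16 MSM calls 9, and of the 9 own-chromosome calls 4, held with each male left out.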
